A study of Mus musculus with 8 samples.

Results

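The genes described here are 8 regulators of epithelial identity, Esrp1, Esrp2, Rbm47, Grhl2, Ovol1, Elf3, Ehf and Tfap2b, chosen by gene symbol from the array's platform annotation. All 8 of 8 were measured, by 17 probes in all, among the 16593 genes and 25697 probes of the array. They were measured in mouse mammary gland cells sorted by activity of the Axl locus. The mice were nulliparous, 16 weeks old and of the B6.129P2-AXLtm1Dgen strain, in which a lacZ insertion both reports on and disrupts Axl, a receptor tyrosine kinase gene.

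Cells came from AXL LacZ/LacZ (homozygous) and AXL +/LacZ (heterozygous) glands, each sorted into an FDG-high and an FDG-low fraction, which makes 4 groups of 2 arrays. FDG is a substrate that becomes fluorescent when the lacZ product cleaves it, and the FDG-high gate took the brightest 5% of cells and the FDG-low gate the dimmest 65%. The gates were thus shares of the cells of a preparation, not fixed levels of fluorescence. All cells were viable and negative for CD45, CD31 and CD11b, each sample pooled the glands of several mice of a genotype, and every group carried at least 1 lacZ allele, so there was no wild-type group. The labels do not say whether the replicates of a group were separate pools, so errors and p-values cover only the spread between these arrays, which could be technical.

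Epithelial cells keep their identity through transcription factors that switch on junction and keratin genes and through RNA-binding proteins that select epithelial splice forms. The splicing factors ESRP1 and ESRP2 favour the epithelial exons of transcripts such as Fgfr2, Cd44 and Ctnnd1, while GRHL2 and the OVOL proteins work against ZEB factors, which repress epithelial genes. In the mammary gland the milk ducts hold an inner luminal and an outer basal layer of epithelial cells, surrounded by fibroblasts and fat.

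These genes were singled out with earlier results of the same arrays in view, mainly their differences between the gates and between the genotypes' gate differences. Gate differences, their interaction with genotype and the genotype difference in FDG-low cells, which those values fix in part, are therefore given for the 8 genes as descriptions. Where the number of the 8 past the threshold of the all-gene fit is counted in these contrasts, the share of all genes stands beside it, and nothing is read from the count, since the choice used the same values. The rule had no threshold. The genotype difference in FDG-high cells was tested. It shares arrays with the gate differences, and the interaction equals this difference minus the genotype difference in FDG-low cells. The test was therefore not independent of how the genes were chosen.

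The median intensity of an array lay between 115.7 and 126.7 units. The background level was set from 1326 probes of odorant and related receptors, and 48.1% to 55.5% of an array's probes exceeded it. Axl itself, measured by 1 probe, was at a normalized log2 intensity of 6.24 ± 0.23 in homozygous and 9.01 ± 0.17 in heterozygous FDG-high cells, and at 6.32 ± 0.11 in homozygous and 8.21 ± 0.33 in heterozygous FDG-low cells (SD, n = 2 each). The genotype difference, homozygous minus heterozygous, was -1.90 in FDG-low cells (limma, adjusted p = 0.0065) and -2.77 in FDG-high cells (adjusted p = 0.080). The homozygous FDG-low arrays stood apart in their luminal, basal and erythrocyte markers, while for fibroblast markers the heterozygous FDG-low arrays were the low ones. The luminal keratin, cadherin and claudin markers (7 of 8 measured) summed to 2491 and 2505 units on these arrays, against 6227 and 4195 in homozygous FDG-high cells, 4850 and 5024 in heterozygous FDG-high cells and 7838 and 8808 in heterozygous FDG-low cells. Basal markers (7 of 8 measured) summed to 12997 and 9725 units in homozygous FDG-high cells, 3163 and 3428 in homozygous FDG-low cells, 14622 and 11851 in heterozygous FDG-high cells and 10924 and 6183 in heterozygous FDG-low cells. Fibroblast markers (9 of 9) summed to 9291 and 10995, 11726 and 11077, 8338 and 13235, and 2334 and 6007 units in the same order of groups. Erythrocyte markers (4 of 4) summed to 712.3 and 688.7 units in homozygous FDG-low cells and to between 231.8 and 468.8 units on the other 6 arrays. Leukocyte markers (6 of 8 measured) stayed between 392.7 and 436.8 units on every array, and Ptprc, Itgam, Cd3e, Cd79a and Lyz2 were below background on all 8. In such bulk samples fewer epithelial cells and less RNA per epithelial cell cannot be told apart, and the part of cell composition in the differences below was not tested.

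The RNA-binding splicing regulators differed in their pattern over the groups. Esrp1, which encodes the main epithelial splicing regulator, had log2 intensities of 9.53 and 9.03 in homozygous FDG-high cells, 7.42 and 7.37 in homozygous FDG-low cells, 9.81 and 9.37 in heterozygous FDG-high cells, and 9.89 and 9.88 in heterozygous FDG-low cells. The homozygous FDG-low arrays were the low ones, and the groups next to each other in order overlapped only between the FDG-high cells of the 2 genotypes. The gate difference, FDG-high minus FDG-low, was 1.88 ± 0.20 in homozygous and -0.29 ± 0.20 in heterozygous glands (log2 difference ± SE from limma), a 3.67-fold higher level in the first case.

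Esrp2, its paralogue, was higher on all heterozygous than on all homozygous arrays. Its log2 intensities were 6.31 and 6.05 in homozygous FDG-high cells, 6.20 and 6.02 in homozygous FDG-low cells, 6.95 and 6.68 in heterozygous FDG-high cells, and 7.38 and 7.18 in heterozygous FDG-low cells. It was above background on all 4 heterozygous arrays, on 1 of the 2 homozygous FDG-high arrays and on neither homozygous FDG-low array, so its gate difference in homozygous glands (0.07 ± 0.15) compares values at background. In heterozygous glands FDG-high cells were lower by a log2 difference of -0.47 ± 0.15, without overlap.

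Rbm47 encodes an RNA-binding protein that stabilises target messages and takes part in splicing and C-to-U editing. Its brightest probe read 10.06 and 9.64 in homozygous FDG-high cells, 7.82 and 7.65 in homozygous FDG-low cells, 9.76 and 9.65 in heterozygous FDG-high cells, and 11.20 and 10.82 in heterozygous FDG-low cells. The FDG-high cells of both genotypes lay together in the middle, with the FDG-low cells of the genotypes on either side of them. The gate difference was 2.11 ± 0.19 in homozygous and -1.31 ± 0.19 in heterozygous glands. Of its 4 other probes, the next brightest gave 0.43 ± 0.22 in homozygous and -0.53 ± 0.22 in heterozygous glands, and another gave 0.12 in both with 4 of 8 arrays above background.

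Among the transcription factors, Grhl2, a grainyhead factor that activates cadherin and claudin genes, read 8.20 and 7.84 in homozygous FDG-high cells, 6.54 and 6.20 in homozygous FDG-low cells, 8.33 and 8.003 in heterozygous FDG-high cells, and 8.33 and 8.29 in heterozygous FDG-low cells. Only the homozygous FDG-low arrays were apart from the rest, and 1 of them was below background. Tfap2b, an AP-2 factor, was low on the same arrays, with 9.01 and 8.76 in homozygous FDG-high cells, 6.59 and 6.70 in homozygous FDG-low cells, 9.28 and 8.98 in heterozygous FDG-high cells, and 8.90 and 8.98 in heterozygous FDG-low cells. Its gate difference of 2.24 ± 0.14 in homozygous glands was the largest of the 8 genes there, and it was the only one with a positive difference in heterozygous glands (0.19 ± 0.14), where the nearest arrays of the gates, both at 8.98, were apart by less than 0.01. The 3 other Tfap2b probes gave 1.24 ± 0.19, 1.00 ± 0.25 and 1.00 ± 0.16 in homozygous glands. In heterozygous glands they gave 0.59 ± 0.19, -0.04 ± 0.25 and -0.14 ± 0.16, so the sign there depended on the probe.

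Elf3 and Ehf encode related ETS factors of epithelia. Ehf read 8.16 and 7.20 in homozygous FDG-high cells, 5.86 and 6.37 in homozygous FDG-low cells, 7.34 and 8.03 in heterozygous FDG-high cells, and 8.40 and 9.33 in heterozygous FDG-low cells. Elf3 read 6.91 and 6.25 in homozygous FDG-high cells, 6.13 and 6.31 in homozygous FDG-low cells, 6.30 and 6.69 in heterozygous FDG-high cells, and 7.36 and 7.75 in heterozygous FDG-low cells. Both were highest in heterozygous FDG-low cells, and the FDG-high cells of the genotypes overlapped. The first homozygous FDG-low array was below background for both. The heterozygous gate differences were -1.19 ± 0.45 for Ehf and -1.06 ± 0.26 for Elf3, and the homozygous ones 1.56 ± 0.45 and 0.36 ± 0.26, with overlapping arrays for Elf3. The other Elf3 probes gave 0.61 ± 0.17 and 0.42 ± 0.18 in homozygous glands and -0.72 ± 0.17 and -0.81 ± 0.18 in heterozygous glands. Their arrays did not overlap between the gates in either genotype, and both homozygous FDG-low arrays were below background.

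Ovol1, a zinc finger repressor, read 7.18 and 6.35 in homozygous FDG-high cells, 6.08 and 6.16 in homozygous FDG-low cells, 6.42 and 6.17 in heterozygous FDG-high cells, and 6.24 and 6.57 in heterozygous FDG-low cells. A single homozygous FDG-high array was high, and the other 7 lay within 0.5 of each other, near background. As both homozygous FDG-low arrays were below background, the level in homozygous FDG-high cells is given as at least 1.48-fold higher.

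**Figure D1:**
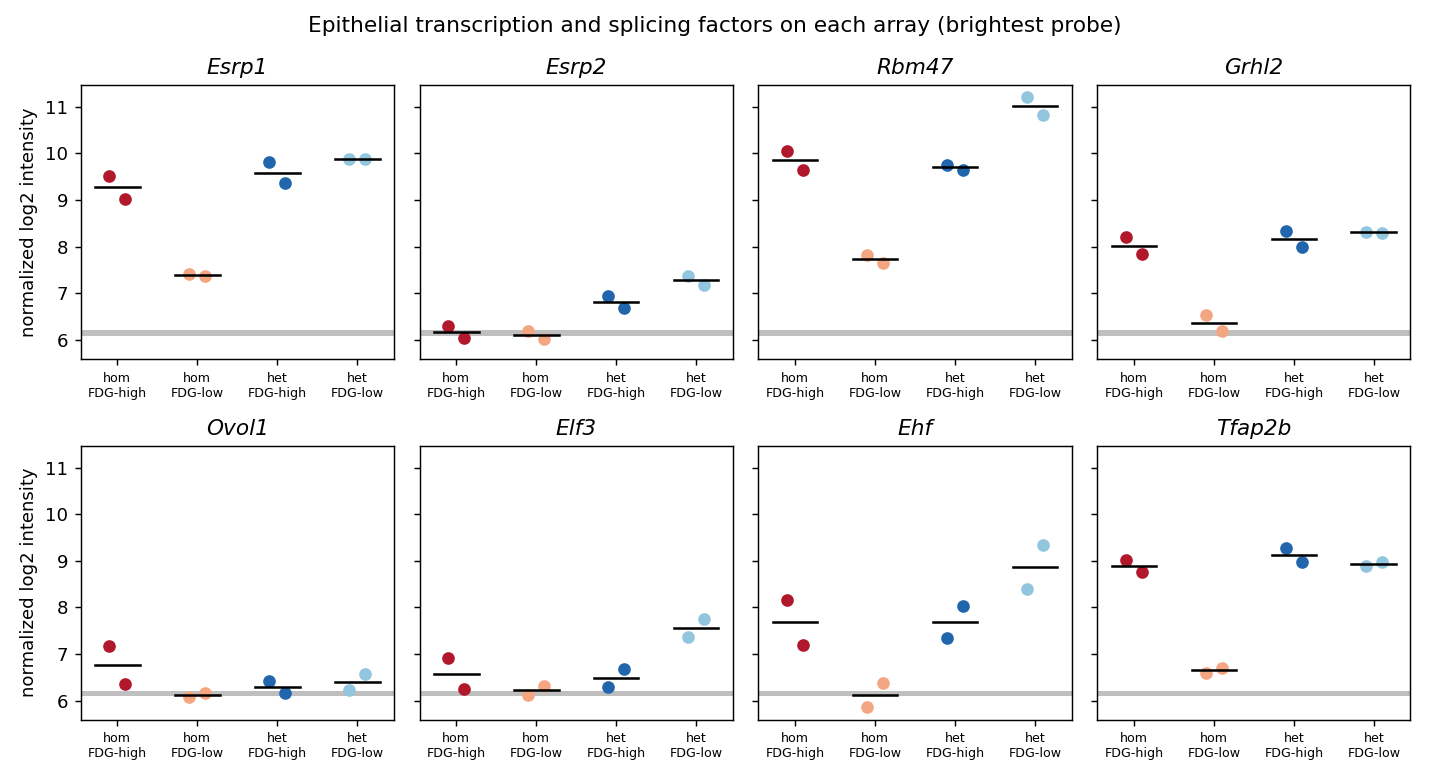
Normalized log2 intensity (vertical axis) of the brightest probe of each of the 8 genes on the 8 arrays, with 1 point per array, a bar at the mean of each group of 2 arrays, and the range of the arrays' background levels in grey. Homozygous FDG-low cells have the lowest mean for all 8 genes, while the other 3 groups change order from gene to gene.

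Seen across genes by the brightest probe, Esrp1, Grhl2 and Tfap2b were nearly level in 3 groups and low in the fourth, homozygous FDG-low cells. Rbm47, Ehf and Elf3 were highest in heterozygous FDG-low cells, apart from the FDG-high cells of either genotype. Their heterozygous gate differences were -1.31, -1.19 and -1.06. Esrp1 and Esrp2 were also highest there without overlap, with smaller gate differences of -0.29 and -0.47. Rbm47 and Ehf were also low in homozygous FDG-low cells, while for the brightest Elf3 probe these arrays overlapped both FDG-high groups. On the other Elf3 probes the homozygous FDG-low arrays were below background and lower than both FDG-high groups. This grouping was made after the values were seen. Over the 8 arrays, the 28 pairs of the 8 genes had Pearson correlations from 0.02 (Esrp2 with Ovol1) to 0.99 (Esrp1 with Grhl2), with a median of 0.75. Because the homozygous FDG-low arrays stand apart, the same was computed over the other 6 arrays. The median was then 0.58, Esrp1 with Grhl2 stayed at 0.98, Elf3 with Ehf was at 0.97, and Rbm47 with Tfap2b changed to -0.16 where it had been 0.88.

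All 8 genes had a positive log2 gate difference in homozygous glands, with a median of 1.61 beside -0.01 over all genes, and the arrays did not overlap for 6 of them. Such separation upwards was found for 21.3% of all genes. As a description only, 4 of the 8 lay past the threshold of an adjusted p of 0.05 over all genes (limma), Tfap2b, Rbm47, Esrp1 and Grhl2, where 0.259% of all genes were called higher, 0.133% lower and 0.392% in either direction. Without either homozygous FDG-low array or without the first homozygous FDG-high array, 0 of the 8 passed, and without either heterozygous FDG-low array Rbm47 and Tfap2b did. In heterozygous glands 7 of the 8 had a negative difference, with a median of -0.38, and 5 were lower without overlap, as were 20.5% of all genes. None of the 8 passed there (limma), where 0.00603% of all genes did in either direction, while 4 of the 8 and 1701 genes in all had an unadjusted p under 0.05.

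**Figure D2:**
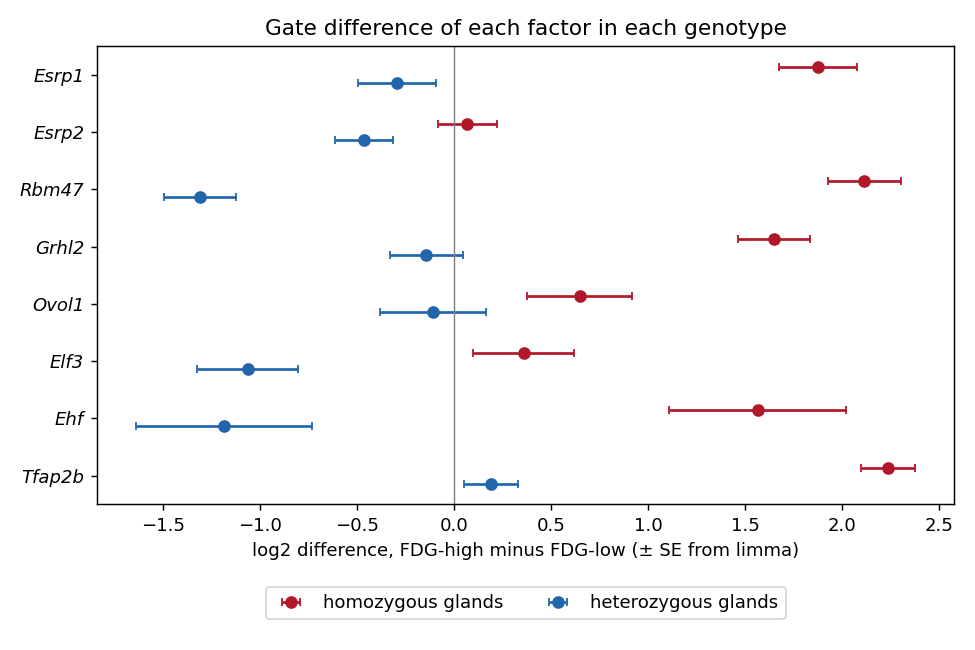
Log2 difference between FDG-high and FDG-low cells (horizontal axis, with its SE from limma) for each of the 8 genes, in homozygous glands in red and in heterozygous glands in blue. Every red point lies right of its blue point, by 3.42 for Rbm47, and the red points of Esrp2 and Ovol1 rest on FDG-low arrays below background.

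The interaction, the homozygous minus the heterozygous gate difference, was 3.42 ± 0.26 for Rbm47, 2.75 ± 0.64 for Ehf, 2.17 ± 0.29 for Esrp1, 2.05 ± 0.20 for Tfap2b, 1.79 ± 0.26 for Grhl2 and 1.42 ± 0.37 for Elf3. No size is given for Ovol1 and Esrp2, which were below background on both homozygous FDG-low arrays. Rbm47, Tfap2b, Esrp1 and Grhl2 lay past the threshold, again as a description of genes chosen on these values, beside 0.579% of all genes called in this direction and 0.814% in either. No call was left when 1 of the 4 FDG-low arrays or the second heterozygous FDG-high array was taken out, and only that of Rbm47 without the first homozygous FDG-high array.

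The genotype comparison among FDG-low cells used the same arrays. Every one of the 8 genes was lower in homozygous than in heterozygous FDG-low cells without overlap, as were 25.6% of all genes, with 24.8% separated the other way, and the median log2 difference was -2.11 beside 0.00 over all genes. Rbm47 had the largest difference (-3.27 ± 0.19, or 9.67-fold lower), followed by Ehf (-2.75 ± 0.45), Esrp1 (-2.48 ± 0.20), Tfap2b (-2.29 ± 0.14), Grhl2 (-1.94 ± 0.19) and Elf3 (-1.34 ± 0.26). Esrp2 was at least 2.12-fold and Ovol1 at least 1.15-fold lower, as neither was above background on the homozygous arrays. All but Ovol1 lay past the threshold, 7 of 8 genes chosen in part on these values, beside 4.63% of all genes called lower and 8.41% in either direction. Without the first or without the second homozygous FDG-low array 4 of the 8 were, Esrp1, Rbm47, Grhl2 and Tfap2b in each case, and the number of genes called in either direction was 121 and 157 where it had been 1396.

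Among FDG-high cells, the comparison for which the study listed differential genes, 0 of the 8 genes differed between the genotypes in limma (adjusted p = 1 for each), as did 0% of all genes. An unadjusted p under 0.05 was reached by 639 genes, among them Esrp2 and no other of the 8. The median log2 difference of the 8, homozygous minus heterozygous, was -0.08, and the values ran from -0.64 ± 0.15 for Esrp2 to 0.47 ± 0.27 for Ovol1. Rbm47 (0.15 ± 0.19), Elf3 (0.08 ± 0.26), Ehf (-0.0024 ± 0.45), Grhl2 (-0.15 ± 0.19), Tfap2b (-0.24 ± 0.14) and Esrp1 (-0.32 ± 0.20) lay between them. Esrp2 was lower in both homozygous FDG-high arrays than in either heterozygous one, as were 15.6% of all genes, with an unadjusted limma p of 0.0046. By the rank product with a permutation p under 0.01 and at least a 1.5-fold change, the rule of the study, Esrp2 was called lower (1.56-fold, p = 0.0046) and the other 7 genes were not, beside 1.22% of all genes called. This gene has 1 probe, which was near background in homozygous cells. The rank product was run on the main processing only. Without background correction the log2 difference of Esrp2 was -0.41, which is under 1.5-fold.

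Promoters, as RefSeq gives them on GRCm38.p6 (250 bases before to 50 after a transcript's start), were available for only 3 of the 8 genes. These were Tfap2b, which was low in homozygous FDG-low cells alone, and Rbm47 and Elf3, which were highest in heterozygous FDG-low cells. Capitals mark matches, on either strand, to AACNNGTT (GRHL), CACCTG (the E-box of ZEB and SNAI factors), GCCNNNGGC (AP-2), GGAAGT (ETS) or CCGTTA (OVO). The Elf3 window is at chr1:135258423-135258722 on the minus strand, the second of 3 Rbm47 windows at chr5:66150929-66151228 on the minus strand, and the Tfap2b window at chr1:19211804-19212103 on the plus strand.
Elf3: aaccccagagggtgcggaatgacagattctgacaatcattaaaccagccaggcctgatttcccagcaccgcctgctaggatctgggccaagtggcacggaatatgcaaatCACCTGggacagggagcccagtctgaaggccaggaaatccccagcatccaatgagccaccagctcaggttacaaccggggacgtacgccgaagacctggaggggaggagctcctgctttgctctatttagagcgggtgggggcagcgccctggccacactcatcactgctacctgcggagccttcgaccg
Rbm47: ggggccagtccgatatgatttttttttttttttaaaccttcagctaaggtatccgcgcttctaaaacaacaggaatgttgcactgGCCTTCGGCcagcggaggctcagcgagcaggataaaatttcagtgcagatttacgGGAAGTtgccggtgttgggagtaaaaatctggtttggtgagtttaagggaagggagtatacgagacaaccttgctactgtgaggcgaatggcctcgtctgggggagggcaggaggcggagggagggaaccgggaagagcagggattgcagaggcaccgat
Tfap2b: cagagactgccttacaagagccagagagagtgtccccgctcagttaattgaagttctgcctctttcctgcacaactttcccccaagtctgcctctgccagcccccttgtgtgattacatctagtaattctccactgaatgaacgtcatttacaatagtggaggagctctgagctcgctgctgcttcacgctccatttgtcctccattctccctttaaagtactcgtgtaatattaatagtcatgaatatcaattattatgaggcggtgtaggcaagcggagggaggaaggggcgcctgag
Elf3 holds 1 E-box, beginning at position -140 from its start, and 20.2% of all 32851 promoter windows hold one. Rbm47 holds an AP-2 match at -165 and an ETS match at -110, motifs found in 16.6% and 23.8% of windows, and the matches do not overlap. The Tfap2b window and the other 2 windows of Rbm47 hold none of the 5, and none of the 5 windows has a GRHL or OVO match, which 4.2% and 2.76% of windows have. The matches describe these letters only.

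Epithelial genes of junctions, keratins and surface proteases were the first of the other lists, which holds all 8 of the listed luminal markers among its genes. This list and those below were also chosen with earlier results of these arrays known. Their counts and adjusted p-values are therefore descriptions and not independent tests. Of 19 measured (of 23 listed), 16 fell in homozygous relative to heterozygous FDG-low cells and 0 rose, with a median of -1.77, beside 4.63% of all genes called lower. St14, a membrane protease, differed by -3.42 ± 0.19 (limma, adjusted p = 0.0016) and Krt8, a luminal keratin, by -2.51 ± 0.29 (adjusted p = 0.0085), while the claudin Cldn4 was at least 1.67-fold lower (adjusted p = 0.022). Cdh1, the gene of E-cadherin and a known GRHL2 target, did not pass (-0.21 ± 0.24, adjusted p = 0.73), and its means were 10.11, 10.02, 10.38 and 10.23 in homozygous FDG-high, homozygous FDG-low, heterozygous FDG-high and heterozygous FDG-low cells. Between the gates, 4 of the 19 rose in FDG-high cells of homozygous glands (list median 0.89), beside 0.259% of all genes. In heterozygous glands 0 of the 19 passed the threshold, where 0.00603% of all genes did in either direction. The list median there was -1.005, and 18 of the 19 had a negative difference. In FDG-high cells 0 of the 19 passed between the genotypes (list median 0.09). Without the first and the second homozygous FDG-low array, 6 and 5 genes fell. The 4 rises became 0 without either of these arrays or the first homozygous FDG-high array, 2 without either heterozygous FDG-low array, and 7 when the second homozygous FDG-high array was left out.

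Transcription factors of epithelial-mesenchymal transition differed in the opposite direction in FDG-low cells. Of 8 measured (of 10 listed), 7 rose in homozygous relative to heterozygous FDG-low cells and 0 fell, with a median of 1.84, beside 3.78% of all genes called higher. Zeb1 and Zeb2, repressors of epithelial genes, differed by 1.95 ± 0.30 and 2.21 ± 0.45 (limma, adjusted p = 0.016 and 0.035), and Twist1 by 1.92 ± 0.34 (adjusted p = 0.025). None of the 8 passed between the gates, where the medians were -0.63 in homozygous and 0.85 in heterozygous glands, or between genotypes in FDG-high cells (median 0.02). The 7 rises were all lost without either homozygous FDG-low array, and 2 and 3 were counted without the first and the second heterozygous FDG-low array. Fibroblast markers, summed above, ran in the same direction in FDG-low cells, and fibroblasts express these factors. The part of cell composition in these rises was not tested.

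Relatives of the 8 genes and other mammary transcription factors had falls and rises in FDG-low cells. Of 12 relatives measured (of 15), 3 fell and 1 rose in homozygous relative to heterozygous FDG-low cells, with a median of -0.44, beside 4.63% of all genes called lower and 3.78% called higher. Ovol2, the paralogue of Ovol1, differed by -1.92 ± 0.41 (limma, adjusted p = 0.041) and Tfap2c by -0.78 ± 0.12 (adjusted p = 0.018), and, named after their values were seen, Tfap2a fell and Elf4 rose. Elf5, a regulator of luminal progenitors, was at least 2.41-fold lower without passing (adjusted p = 0.073), Grhl1 (-0.94 ± 0.28) did not pass, and Grhl3 was below background in homozygous FDG-low cells. Of 14 other mammary transcription factors (of 16), 3 fell and 1 rose, with a median of -0.73, beside the same shares of all genes, so the 1 rise is near the background. Gata3, a luminal factor, was at least 1.62-fold lower (adjusted p = 0.035), and Klf5 (-2.11 ± 0.53), the basal factor Trp63 (-1.20 ± 0.42), Esr1 (-0.48 ± 0.19) and Foxa1 (at least 1.06-fold lower) did not pass. Sox9 and Myb, which fell, and Cebpb, which rose, were likewise named after their values were seen. All 8 calls were lost without either homozygous FDG-low array. The relatives' falls numbered 1 and 0 and their rises 0 and 1 without the first and the second heterozygous FDG-low array, and the other factors' falls 1 and 2 and rises 1 and 0.

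Genes whose transcripts ESRP proteins splice, and other splicing factors, had 1 call per list. Of 9 ESRP-spliced genes (of 10), only Fgfr2, a growth factor receptor gene, fell in homozygous FDG-low cells (-1.24 ± 0.22, limma, adjusted p = 0.025), beside 4.63% of all genes called lower, and Cd44 (0.09 ± 0.31) and Ctnnd1 (0.04 ± 0.29) did not pass. The array reads total transcript at its probes, and splice forms were not analysed here. Of 18 splicing factors measured (of 18), 1 rose in homozygous FDG-low cells, which was Tra2b, named after its value was seen, and the median was 0.16. That share is near the 3.78% of all genes called higher. Rbfox2 (0.58 ± 0.21), Ptbp1 (0.46 ± 0.19) and Qk (at least 1.19-fold higher) did not pass. Both calls were lost without either homozygous FDG-low array, that of Fgfr2 also without the first heterozygous FDG-low array, and that of Tra2b without either heterozygous FDG-high array or the second heterozygous FDG-low array. No gene of either list passed in the other contrasts.

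**Figure D3:**
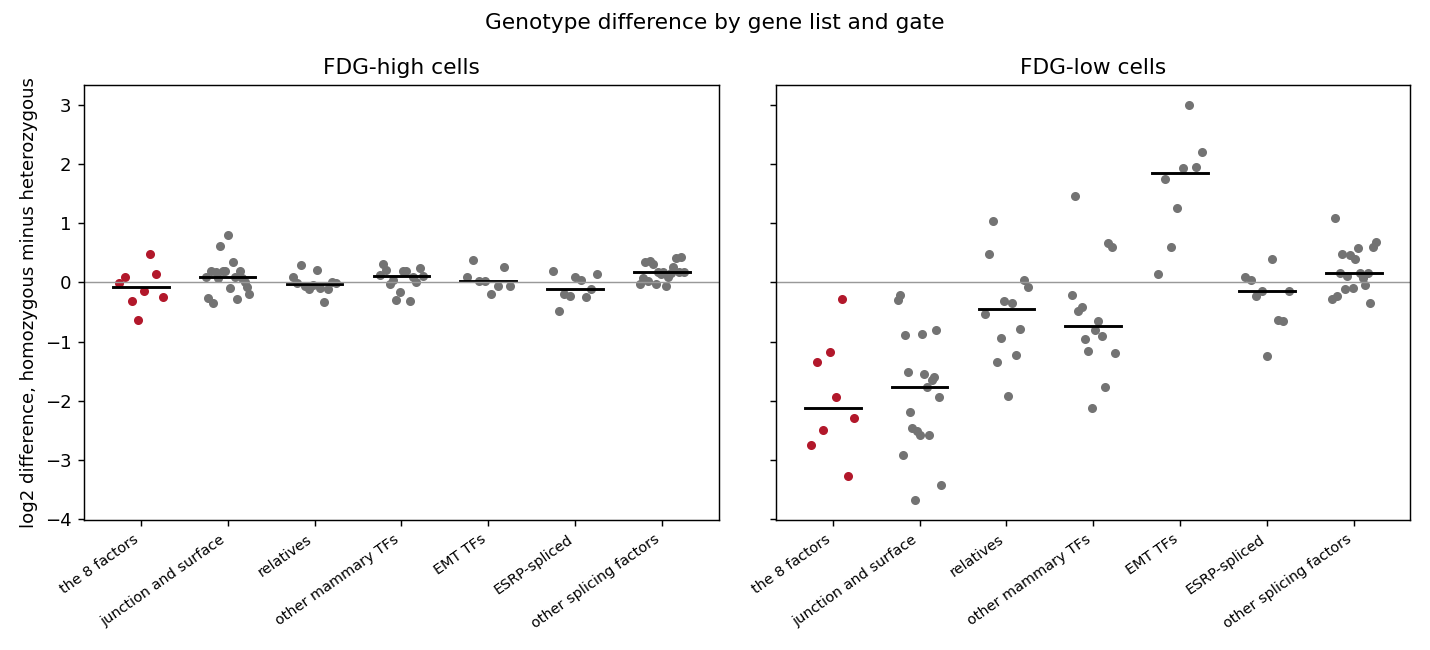
Log2 difference between homozygous and heterozygous cells (vertical axis) for the 8 genes in red and the genes of 6 other lists in grey, in FDG-high cells on the left and FDG-low cells on the right, with 1 point per gene and a bar at each list's median. In FDG-high cells all medians lie between -0.11 and 0.17, and in FDG-low cells they run from -2.11 for the 8 genes to 1.84 for transition factors.

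The average profile of the 8 genes, each centred over the arrays, was 0.42 and -0.11 in homozygous FDG-high cells, -1.17 and -1.15 in homozygous FDG-low cells, 0.27 and 0.19 in heterozygous FDG-high cells, and 0.71 and 0.85 in heterozygous FDG-low cells. Among 10568 other genes above background on at least 2 arrays, H2bc12, Pik3cb, Cxadr, Apobec3 and Krt18 were most like it, with Pearson correlations between 0.992 and 0.996 over 8 arrays and between 0.964 and 0.994 over the 6 arrays without homozygous FDG-low cells. Cxadr encodes an adhesion protein of tight junctions and Krt18 a luminal keratin. The most opposite were Gpr176, Pgm2, Saa3, Phldb1 and Tspan5, between -0.990 and -0.984. For single genes the nearest were Efna5 for Esrp1 (0.995), Prr15l for Esrp2 (0.964), Wnt7b for Rbm47 (0.993), Arhgef3 for Grhl2 (0.996), Pdcd10 for Ovol1 (0.956), Mycbpap for Elf3 (0.996), Gjb2 for Ehf (0.991) and the keratin Krt23 for Tfap2b (0.997). The last value was 0.876 over the 6 arrays. Such values are the highest of many genes over few arrays and are given as a description.

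**Figure D4:**
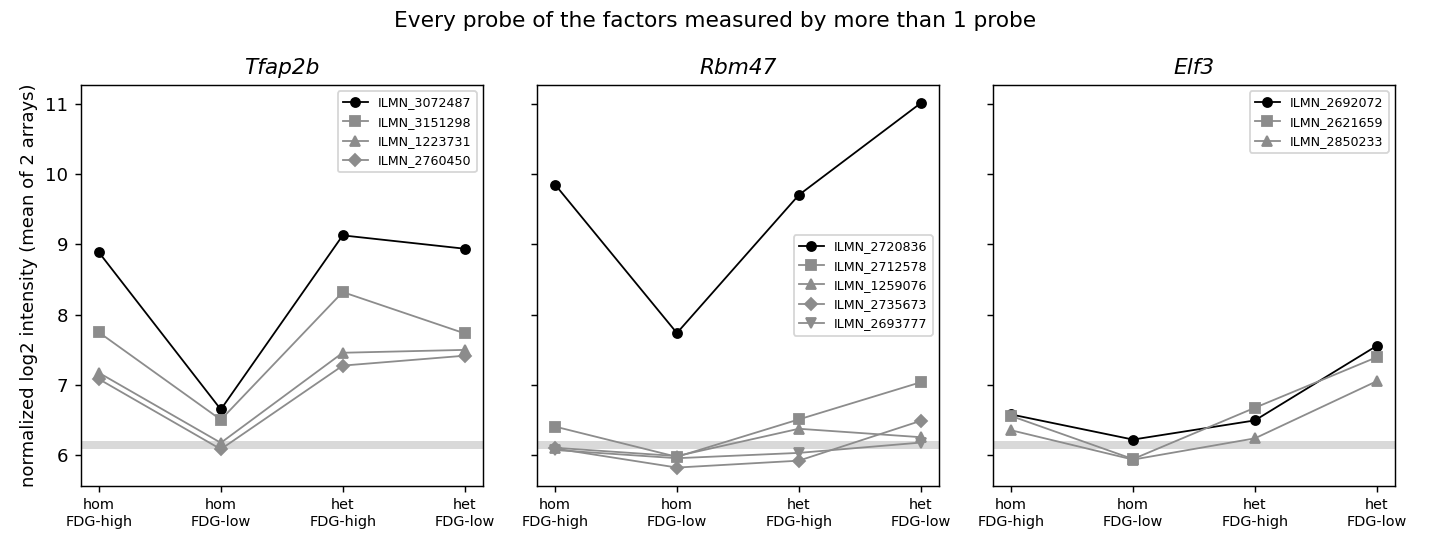
Mean normalized log2 intensity of 2 arrays (vertical axis) in each group for every probe of Tfap2b, Rbm47 and Elf3, the brightest probe in black and the others in grey, with the range of background levels as a band. All 4 Tfap2b probes are lowest in homozygous FDG-low cells, while 4 of the 5 Rbm47 probes lie near background.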

How the data were processed

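The deposited values are linear probe intensities from Illumina mouse bead arrays, 8 arrays on a single chip per the labels, where each group took neighbouring positions, so position and group cannot be told apart. Log2 and quantile normalization are named in the design text, yet these deposited intensities are on a linear scale with a different distribution on each array. Their background handling is not known here. They were background corrected with normexp (limma 3.58.1, R 4.3.3, offset 50), quantile normalized and log2 transformed, so fold changes of dim genes are understated. Names came from GEO's platform table (23978 with 1 symbol, 0 with several, 1719 with none), and the brightest probe stood for each gene. The background of an array was the 95th percentile of 1326 odorant, vomeronasal and trace amine receptor probes. A gene below background on all arrays of a group is given as "at least" a fold, against the higher, per array, of its measured signal and the lowest signal of any probe above background.

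A limma model of all 8 arrays with a coefficient per group gave the contrasts, with two-sided moderated tests and Benjamini-Hochberg adjustment over all 16593 genes (threshold 0.05). It was tested on simulated data. Members, lists and the genes named from them were chosen with earlier results of these data known. Named were all 8 members, preset genes of each list, and the genes most like the members' mean profile; Epcam and Snai2 were not analysed here. Alternatives changed the background correction, scaling, filter, probe rule, variance trend, replicate block and arrays, and added the rank product (100 permutations) that the design text names.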

Additional observations from a re-analysis of the deposited data

Results flagged for a closer look

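The gate difference ran in opposite directions in the 2 genotypes for Rbm47, Ehf and Esrp1. Both FDG-high arrays were above both FDG-low arrays in homozygous glands and below them in heterozygous glands. Of all genes, 21.3% were higher in this way in homozygous glands and 20.5% lower in heterozygous glands. The share of genes with both was not counted. For Esrp1 the heterozygous difference was small (-0.29 ± 0.20), with the nearest arrays of the gates at 9.81 and 9.88. The homozygous minus heterozygous gate difference was 3.42 for Rbm47, 2.75 for Ehf and 2.17 for Esrp1 on the log2 scale. These genes were chosen with such values known, so the difference is a description, and their place in the all-gene fit is not used as a test of it.

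St14, the membrane protease gene of the junction list, differed in the same way, with a gate difference of 2.11 in homozygous and -1.11 in heterozygous glands and an interaction of 3.22 ± 0.27 (limma, adjusted p = 0.012). The list was chosen with earlier results known. Without either homozygous FDG-low array 0 genes of the whole array were called for the interaction, and without either heterozygous FDG-low array 0 genes of the junction list, so the call of St14 was lost in each case.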

How the results depend on the processing

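With 2 arrays per group, single arrays decided most counts, and dim genes (Esrp2, Ovol1, Elf3) were limited by signal over background. Grhl2 and Ehf were each below background on 1 homozygous FDG-low array. The genotype difference of Ehf in FDG-low cells was -3.65 with an offset of 16 and -2.11 without background correction. When 1 array at a time was left out, the median log2 difference of the 8 genes ran from -0.35 to 0.20 for genotype in FDG-high cells and from 1.27 to 1.94 for the gate in homozygous glands. The number of the 8 called ran from 0 to 4 for that gate difference, from 0 to 4 for the interaction and from 4 to 7 for genotype in FDG-low cells. The medians for the homozygous gate difference, the interaction and genotype in FDG-low cells were 1.16, 1.48 and -1.65 without background correction, 2.17, 2.40 and -2.65 with an offset of 16, and 1.01, 1.27 and -1.42 with the mean of all probes. The first of these settings shrinks differences by construction, as it leaves background in. The probe mean alters only Rbm47, Tfap2b and Elf3, which have several probes. The other probes of Rbm47 and Tfap2b gave smaller homozygous gate differences than the brightest, and those of Elf3 larger ones. Why the probes differed was not tested. Without background correction 2 of the 8 were called for the homozygous gate difference and 2 for the interaction, and in a fit to the 4 homozygous arrays alone 0 were called. The rank product called 1 of the 8, and 202 genes in all, for genotype in FDG-high cells, where limma called 0.

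Over all genes, 65 were called for the homozygous gate difference and 135 for the interaction. These counts became 164 and 258 with the offset of 16, 193 and 183 under median centring, 128 and 258 among genes above background on at least 2 arrays, 137 and 277 with an intensity trend, and 43 and 97 without background correction, and the cause was not tested. Of the calls in the homozygous gate difference 66.2% were higher, 88.1% under median centring and 48.8% without background correction. For the interaction the share was 71.1%, and 88.0% under median centring.

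Small genotype differences in FDG-high cells changed sign in some settings. Ehf, at -0.0024, was 0.0044 without background correction and 0.11 under median centring, and Rbm47 was -0.0018 with the mean of all probes. Leaving out arrays gave -0.059 to 0.36 for Rbm47, -0.33 to 0.035 for Grhl2, -0.25 to 0.42 for Elf3 and -0.49 to 0.48 for Ehf, none past the threshold. Esrp2 kept its sign throughout (-1.04 to -0.41, adjusted p between 0.63 and 1).

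With a replicate block (replicate number added to the model), the medians of the 8 genes were 1.61 for the homozygous gate difference and -0.38 for the heterozygous one, 4 and 0 genes were called, and 4 and 7 were for the interaction and for genotype in FDG-low cells, so no count of the 8 changed. Over all genes 52 and 117 were called for the homozygous gate difference and the interaction. Deviations of arrays with the same number correlated at 0.40 between the heterozygous gates and at 0.01 between the homozygous gates. Pairs of groups that cross genotypes gave -0.05 to 0.07, but these cannot share a pool of glands. The labels do not say whether same-number arrays of a genotype shared a pool, and the main model did not pair them. The block holds a single replicate effect for both genotypes, so it does not cover a pairing within heterozygous glands alone.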
